A study of Homo sapiens with 4 samples.

Results

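Interferon-stimulated genes and RNA sensors are 35 named human genes that detect viral nucleic acid, relay that signal or act on the virus. They were chosen by gene symbol, and all 35 had a row among the 64252 gene IDs of the count table. RNA-seq libraries came from Jurkat cells, an established human T cell acute lymphoblastic leukemia line. Cells carried a scrambled short hairpin RNA (sh-Scb, 2 libraries) or a short hairpin RNA against SOX4, a transcription factor of the SOXC family (sh-SOX4, 2 libraries). No interferon, virus or drug is named in the labels for either group. The labels also do not say how long the hairpins were present, whether cells were selected, or whether the 2 libraries of a group came from separate cultures.

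Cells meet viral RNA with helicase sensors in the cytoplasm (RIGI and IFIH1), which signal through the mitochondrial adaptor MAVS, and meet viral DNA with sensors that signal through STING1. Both routes activate IRF3 and IRF7, which switch on interferon genes. Secreted interferon binds its receptors, and a complex that includes STAT2 and IRF9 then binds the interferon-stimulated response element (ISRE) in target promoters. IRF1 binds closely related sites and can hold many of these genes at a basal level. Interferon gamma acts through another element, the gamma-activated sequence (GAS). T cells keep many of these genes on at a low level without added interferon.

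The promoter letters are shown because they are what the IRF and STAT factors read, and because genes with a match were found among those that rose, fell or did not pass the test. RefSeq promoter windows (GRCh38.p14, from 250 bases before to 50 after a start site) were matched for 26 of the 35 genes. The other 9 were IRF3, IRF7, DHX58, STING1, IFIT2, OAS2, OASL, USP18 and MX2. The ISRE core was searched on both strands as GAAA, any 2 bases and GAAA, which reads TTTC, any 2 bases and TTTC on the other strand, and the GAS core as TTCNNNGAA, which reads the same on both strands; matches may overlap each other. Each stretch below runs 5′ to 3′ on the strand of its gene, with the match in capitals. The first 9 belong to genes that were higher in sh-SOX4, HERC5 was lower, and IFIT1, IFIT5 and IFI6 did not pass the test. Of the 9, IFIT3 was tested only through its sh-SOX4 counts. The last, of IRF1, is a GAS match.
IFIT3 (chr10:89332468-89332497, plus strand): gttccatcagTTTCACTTTCctttcccctt
IFI44 (chr1:78649761-78649790, plus strand): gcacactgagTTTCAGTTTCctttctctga
RSAD2 (chr2:6877622-6877651, plus strand): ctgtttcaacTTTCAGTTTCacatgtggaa
ISG15 (chr1:1013380-1013409, plus strand): tcgggaaaggGAAACCGAAActgaagccaa
DDX60 (chr4:168318786-168318815, minus strand): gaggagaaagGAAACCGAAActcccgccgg
IFIH1 (chr2:162318686-162318715, minus strand): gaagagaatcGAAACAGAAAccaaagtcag
OAS3 (chr12:112938321-112938350, plus strand): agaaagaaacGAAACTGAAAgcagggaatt
PARP9 (chr3:122564322-122564351, minus strand): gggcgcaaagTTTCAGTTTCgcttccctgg
BST2 (chr19:17405741-17405770, minus strand): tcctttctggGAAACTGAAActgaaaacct
HERC5 (chr4:88457035-88457064, plus strand): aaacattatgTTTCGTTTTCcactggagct
IFIT1 (chr10:89392510-89392539, plus strand): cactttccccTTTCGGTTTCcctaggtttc
IFIT5 (chr10:89414513-89414542, plus strand): ttctattaagTTTCGGTTTCtgaagcttac
IFI6 (chr1:27672288-27672317, minus strand): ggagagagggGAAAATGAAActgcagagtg
IRF1 (chr5:132490879-132490907, minus strand): acagcctgatTTCCCCGAAatgacggcac

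An ISRE core was present in a window of 17 of the 26 matched genes, against 4.38% of 27305 genes with a window (1195 genes). It was present in 9 of 13 matched genes that were higher in sh-SOX4, in 1 of 2 that were lower and in 7 of 11 that did not pass or were not tested. Both the 9 and the 13 include IFIT3, which was tested only through its sh-SOX4 counts. A GAS core was present in 8 of 26 matched genes, against 9.38% of all genes with a window. These shares are descriptions of the letters in the windows and were not tested.

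Library totals ran from 29093287 to 36636219 counts, so that 3 counts are worth 0.0819 to 0.103 CPM (counts per 1000000 counts of a library). Levels are in CPM after scaling by the trimmed mean of M-values (TMM), and every fold change is sh-SOX4 over sh-Scb. Adjusted p-values are from the quasi-likelihood test of edgeR, with the Benjamini-Hochberg method applied over all 19897 IDs tested. A gene is said to have risen or fallen where that value was under 0.05. SOX4 itself was 271 and 277 CPM in sh-Scb and 191 and 199 CPM in sh-SOX4, a log2 fold change of -0.49 (SE 0.044; edgeR adjusted p of 1.24e-05). Of 11 T cell markers all were measured, with summed levels of 1903 to 1911 CPM in sh-Scb and 2443 to 2451 CPM in sh-SOX4. Of these, 8 were called higher and CD247 lower, or 81.8% called where 44.1% of all IDs were. All 11 were at 20 CPM or more, where 65.5% of IDs were called. CD7 and LCK did not pass. The summed level of 8 myeloid markers was 15.8 to 19.95 CPM in sh-Scb and 19.6 to 19.8 CPM in sh-SOX4; LYZ was at 0 in all libraries and S100A8 was at 0 in both sh-Scb libraries and had 42 and 36 counts in those of sh-SOX4. Among the 6 myeloid markers tested, AIF1 was called higher and CD68 lower. S100A8 reached the minimum count only through the sh-SOX4 libraries, so it had to differ to be tested and its call is not used. The 5 plasmacytoid dendritic cell markers summed to 8.53 to 8.57 CPM in sh-Scb and 7.19 to 8.86 CPM in sh-SOX4, most of it TCF4 (6.52 to 7.88 CPM). CLEC4C was at 0 in all libraries and LILRA4 in 3 of them, and GZMB was counted in all 4. IL3RA, which did not exceed 0.235 CPM in either sh-SOX4 library, met the minimum count through sh-Scb alone. Its lower call is therefore set aside, as for S100A8. Summed B cell markers were 66.5 to 68.3 CPM in sh-Scb and 14.1 to 14.6 CPM in sh-SOX4, nearly all of it CD79A. The mitochondrial share of counts was 4.75% to 4.81% in sh-Scb and 6.17% to 6.23% in sh-SOX4, and the part of this share and of these markers in the results below was not tested.

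Of the 35 genes, 33 had enough counts to be tested, and 20 of those passed, 15 higher and 5 lower in sh-SOX4. Over all IDs tested 44.1% passed, 23.2% higher and 20.9% lower. The median log2 fold change was 0.19 over the 33 genes and -0.01 over all IDs. IFIT3 reached the minimum count only through the sh-SOX4 libraries, so it had to differ to be tested at all; without it 19 of 32 passed, 14 of them higher, with a median of 0.16. A larger share was called at higher levels. At a mean of 20 CPM or more 14 of 16 genes of the set passed, against 65.5% of 8598 IDs. From 5 to 20 CPM 4 of 7 passed, against 46.8% of 3500 IDs. Below 5 CPM 2 of 10 passed, against 19.3% of 7799 IDs. Those 2 were IFIT2 and IFIT3, and the call of IFIT3 is no test of a difference. The CPM bounds were set after the values were seen.

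**Figure D1:**
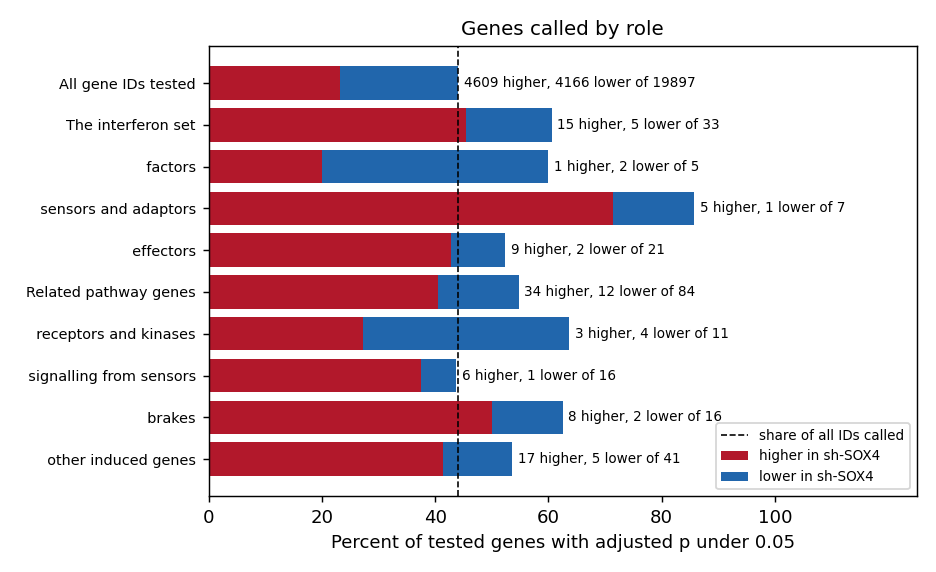
Percent of tested genes with an edgeR adjusted p under 0.05 (horizontal axis) for all gene IDs, the interferon set and its roles, and the related pathway genes and their sublists; red is higher and blue lower in sh-SOX4. The dashed line marks the 44.1% of all IDs called, a share that was 65.5% among IDs at 20 CPM or more. The sensors and adaptors, with 5 higher and 1 lower of 7, reached the highest share.

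Most changes were small. Leaving IFIT3 aside, the fold among the other 14 rises ran from 1.204 for MAVS to 2.77 for IFI44, and among the 5 falls the level dropped 1.203-fold for IRF3 to 1.58-fold for HERC5. Changes under 1.5-fold made up 10 of the 20, and without IFIT3 the genes called at 2-fold or more were IFI44 and IFIT2, 2 of 32, where 9.45% of all IDs were called at that size. A test against a 1.2-fold change called 13 of the 33, 12 higher and 1 lower, where it called 26.9% of all IDs. The 12 include IFIT3, which entered the test only through the sh-SOX4 libraries. The libraries of the groups did not overlap for 28 of the 33 tested genes, IFIT3 among the 28, a property shared by 72.9% of all IDs tested. In bulk libraries, a change in the number of cells that express a gene and a change in RNA per cell cannot be told apart.

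**Figure D2:**
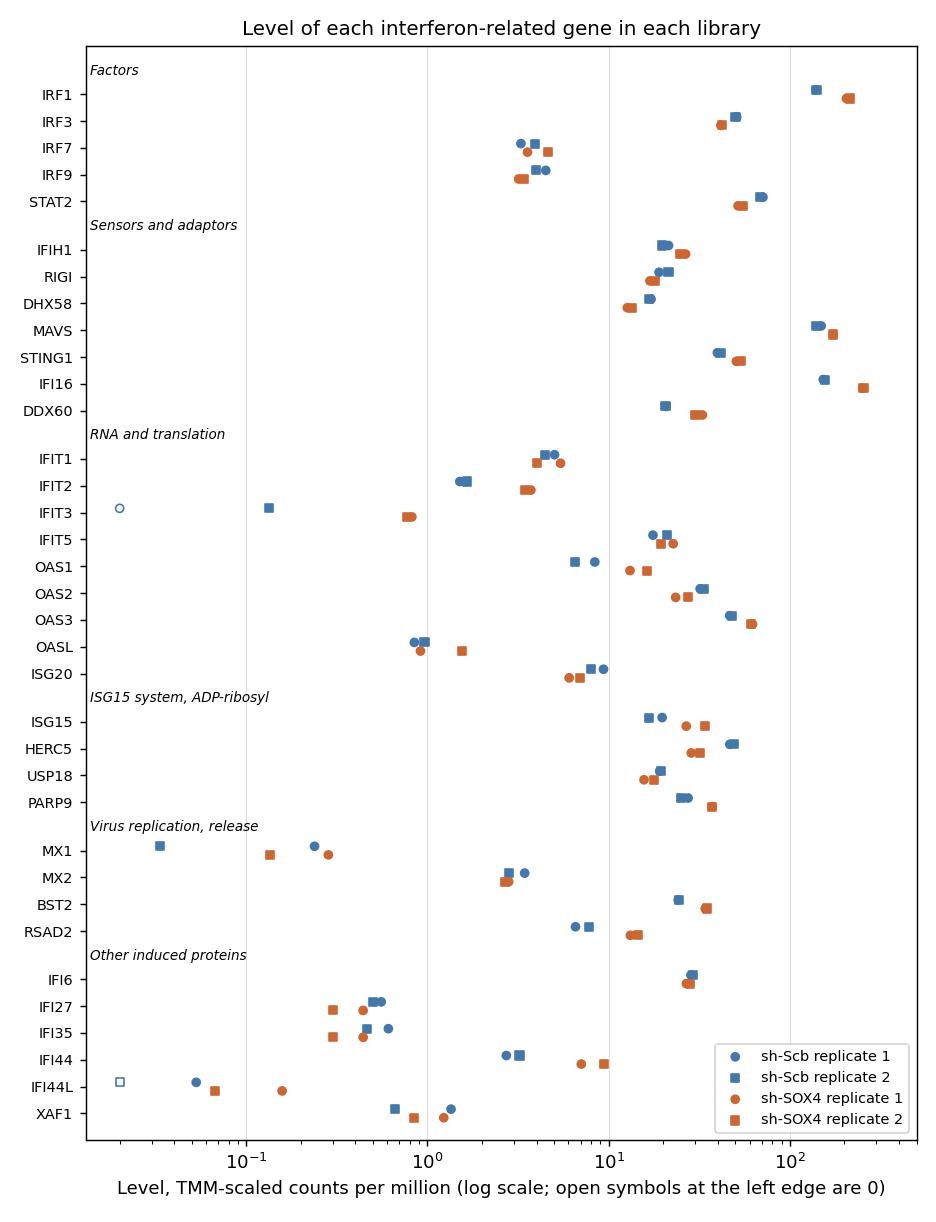
TMM-scaled CPM (log axis) of each of the 35 genes in each of the 4 libraries, grouped by role; blue is sh-Scb, orange is sh-SOX4, circles are replicate 1 and squares replicate 2, and open symbols at the left edge are 0. Levels span from 0 to 255 CPM, and IFI16, IRF1 and IFI44 show sh-SOX4 libraries well to the right of sh-Scb libraries.

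The 5 regulatory factors went in different directions, with 1 higher and 2 lower, or 60% called beside 44.1% of all IDs. IRF1, an activator of basal and interferon-induced transcription (chromosome 5, 132481609 to 132490798 on GRCh38), was at 139.5 and 140.2 CPM in sh-Scb and at 205 and 215 CPM in sh-SOX4. Both sh-SOX4 libraries were well above both controls, a 1.503-fold rise (log2 fold change 0.59, SE 0.046; edgeR adjusted p of 5.20e-06). An annotated antisense gene, IRF1-AS1, covers 22.0% of its exonic bases, and at a mean of 20.7 and 19.5 CPM it did not pass the test. STAT2, the STAT partner that is specific to type I and type III interferon signalling (chromosome 12, 56341597 to 56360155), was at 71.0 and 68.2 CPM in sh-Scb and at 51.8 and 55.4 CPM in sh-SOX4. It fell by 0.38 on the log2 scale (SE 0.063; edgeR adjusted p of 0.000815), and the groups did not overlap.

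IRF3, which carries the signal from sensors to interferon genes, was at 50.9 and 50.1 CPM in sh-Scb and at 41.7 and 42.3 CPM in sh-SOX4. It fell by 0.27 on the log2 scale (SE 0.068; edgeR adjusted p of 0.0095), which became an edgeR adjusted p of 0.0505 without sh-SOX4 replicate 1, within 0.00141 to 0.447 over all settings tried. The apoptosis-related gene BCL2L12 covers 19.3% of the exonic bases of IRF3 and rose by 0.36 on the log2 scale, so reads in the shared part cannot be told apart. IRF9, the DNA-binding partner of STAT2, was at 4.50 and 3.95 CPM in sh-Scb and at 3.18 and 3.43 CPM in sh-SOX4. These groups did not overlap, but the gene did not pass (edgeR adjusted p of 0.195). Another annotated gene covers 48.4% of the exonic bases of IRF9, at a mean of 15.6 CPM in sh-Scb and 19.8 CPM in sh-SOX4. That gene rose by 0.34 on the log2 scale (edgeR adjusted p of 0.0289), so here too reads in the shared part cannot be told apart. IRF7, the amplifier of interferon production, was at 3.28 and 3.92 CPM in sh-Scb and at 3.56 and 4.64 CPM in sh-SOX4, with overlapping groups (edgeR adjusted p of 0.531; 95% interval of the fold 0.805 to 1.62).

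Of the 7 sensors and adaptors, 5 rose and 1 fell, or 85.7% called beside 44.1% of all IDs. All 7 were at 12.7 CPM or more in every library. Of all IDs, 46.8% of those from 5 to 20 CPM and 65.5% of those at 20 CPM or more were called. IFI16, a sensor of DNA in the nucleus and cytoplasm (chromosome 1, 158999968 to 159055155), changed with the smallest adjusted p of the whole set. It was at 153 and 156 CPM in sh-Scb and at 253 and 255 CPM in sh-SOX4, a 1.64-fold rise (log2 fold change 0.72, SE 0.043; edgeR adjusted p of 9.20e-07). DDX60, a helicase reported to assist RIGI and its relatives (chromosome 4, 168216293 to 168318807), was at 20.7 and 20.6 CPM in sh-Scb and at 32.9 and 30.1 CPM in sh-SOX4. This 1.53-fold rise had an edgeR adjusted p of 0.000444.

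The adaptors of both routes rose by less. STING1, through which cytoplasmic DNA sensing signals, was at 39.8 and 41.4 CPM in sh-Scb and at 50.7 and 53.8 CPM in sh-SOX4 (log2 fold change 0.36, SE 0.071; edgeR adjusted p of 0.00217). MAVS, the mitochondrial adaptor of the RNA helicases, was at 149 and 139 CPM in sh-Scb and at 174 and 173 CPM in sh-SOX4 (log2 fold change 0.27, SE 0.049; edgeR adjusted p of 0.00147). Neither adaptor had overlapping groups, and for both the change was under 1.3-fold.

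The 3 RNA helicases of the RIGI family did not move together. IFIH1, the sensor of long double-stranded RNA, was at 21.4 and 19.8 CPM in sh-Scb and at 26.6 and 24.7 CPM in sh-SOX4, and rose by 0.32 on the log2 scale (SE 0.099; edgeR adjusted p of 0.0256). That edgeR call was lost with scaling to library totals (adjusted p of 0.101). It was also lost when sh-Scb replicate 2 (0.108) or sh-SOX4 replicate 1 (0.119) was left out and with DESeq2 (0.0676), within an adjusted p of 0.0191 to 0.286 over all settings. DHX58, a relative that lacks the signalling domain and tunes the other sensors, was at 17.1 and 16.6 CPM in sh-Scb and at 12.7 and 13.4 CPM in sh-SOX4, and fell by 0.37 on the log2 scale (SE 0.11; edgeR adjusted p of 0.0201). The edgeR call was lost on leaving out sh-Scb replicate 1 (adjusted p of 0.0801) or sh-SOX4 replicate 1 (0.101), and DESeq2 gave 0.0702, within 0.00562 to 0.172 over all settings. RIGI, the sensor of RNA with a triphosphate end (chromosome 9, 32455705 to 32526324), was at 19.0 and 21.4 CPM in sh-Scb and at 16.9 and 17.9 CPM in sh-SOX4, and did not pass (edgeR adjusted p of 0.145; 95% interval of the fold 0.7302 to 1.02). It passed as lower with scaling to library totals (adjusted p of 0.0418), within 0.0417 to 0.659 over all settings tried with edgeR, DESeq2 and limma-voom.

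**Figure D3:**
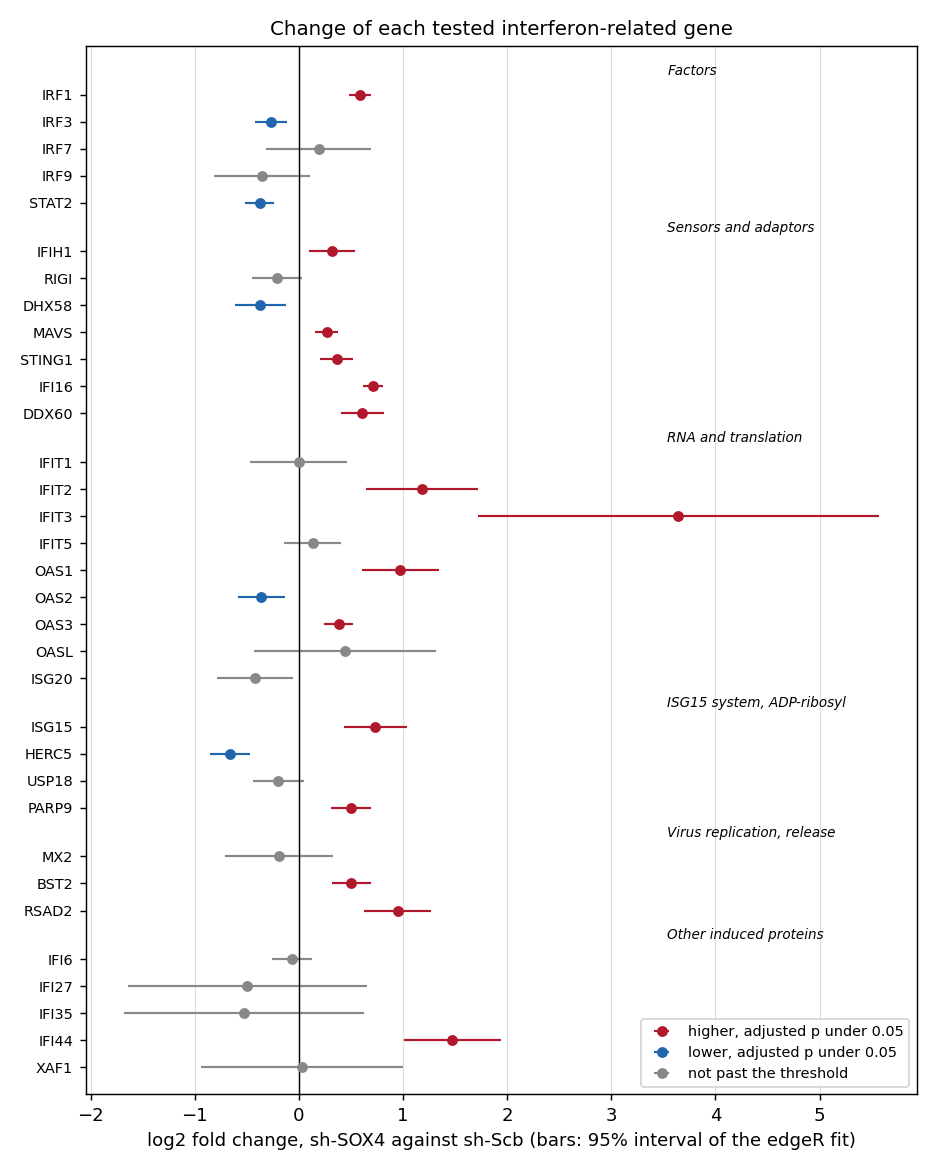
log2 fold change of the 33 tested genes, sh-SOX4 against sh-Scb, with the 95% interval of the edgeR fit, grouped by role; red points rose, blue points fell and grey points did not pass. Intervals are narrow for genes at high level such as IFI16 (0.62 to 0.81) and wide for genes at low level such as IFI35 (-1.68 to 0.63). IFIT3 entered the test only through the sh-SOX4 libraries, so its interval and red colour are no test of a difference.

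Among the 23 effectors, 21 were tested, 9 rose and 2 fell, or 52.4% called beside 44.1% of all IDs; the 9 include IFIT3. The IFIT genes, whose proteins bind foreign RNA and block its translation, lie side by side on chromosome 10. IFIT2 (89283694 to 89309276) was at 1.51 and 1.66 CPM in sh-Scb and at 3.72 and 3.46 CPM in sh-SOX4, a 2.27-fold rise (log2 fold change 1.18, SE 0.24; edgeR adjusted p of 0.0028). IFIT3 (89327894 to 89340971) was nearly silent in sh-Scb, with 0 and 4 counts, and reached 26 and 23 counts in sh-SOX4. Its sh-Scb level was thus near the floor, and the ratio of pooled CPM was 12.6, with an exact binomial 95% interval of 4.63 to 48.2 that covers counting error only. As it entered the test only through the sh-SOX4 libraries, its p is not given. Its fitted log2 fold change was 3.64, and was 2.55 without sh-Scb replicate 1 and 7.73 without sh-Scb replicate 2, where the remaining control has 0 counts and the value is no measure of size. Even in sh-SOX4 it stayed under 1 CPM.

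The other IFIT genes did not pass. IFIT1 (89392546 to 89406486) was at 5.03 and 4.45 CPM in sh-Scb and at 5.42 and 4.03 CPM in sh-SOX4, with an edgeR adjusted p of 0.991 and a 95% interval of the fold of 0.721 to 1.38. IFIT5 (89414586 to 89421001) was at 17.6 and 20.9 CPM in sh-Scb and at 22.7 and 19.3 CPM in sh-SOX4 (95% interval of the fold 0.904 to 1.33). Both had overlapping groups, and both carry ISRE cores in the windows printed above, as IFIT3 does.

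The OAS enzymes, which sense double-stranded RNA and make the oligoadenylate that activates RNase L, sit together on chromosome 12 and went both ways. OAS1 (112906777 to 112933222) was at 8.38 and 6.54 CPM in sh-Scb and at 13.1 and 16.3 CPM in sh-SOX4, a 1.96-fold rise (log2 fold change 0.97, SE 0.16; edgeR adjusted p of 0.000916). OAS3 (112938352 to 112973249) was at 46.6 and 47.9 CPM in sh-Scb and at 62.2 and 61.0 CPM in sh-SOX4, and rose 1.30-fold (log2 fold change 0.38, SE 0.062; edgeR adjusted p of 0.000652). OAS2 (112978395 to 113011723) was at 32.0 and 33.4 CPM in sh-Scb and at 23.4 and 27.5 CPM in sh-SOX4, and fell by 0.36 on the log2 scale (SE 0.10; edgeR adjusted p of 0.0147). None of these 3 had overlapping groups. Without sh-SOX4 replicate 1, the lower of its 2 libraries, the edgeR adjusted p of OAS2 was 0.110, within 0.00248 to 0.171 over all settings. OASL, a relative without that enzymatic activity, was under 2 CPM in every library and did not pass.

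ISG20, an exonuclease that degrades RNA, was at 9.36 and 8.002 CPM in sh-Scb and at 6.05 and 6.92 CPM in sh-SOX4. The groups did not overlap, and the gene missed the threshold (log2 fold change -0.42, SE 0.16; edgeR adjusted p of 0.0614). It passed with scaling to library totals (adjusted p of 0.0262) and without sh-Scb replicate 2 (0.0414), within 0.0262 to 0.309 over all settings.

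The ISG15 system attaches a ubiquitin-like protein to other proteins, and its components moved apart. ISG15, the modifier itself (chromosome 1, 1001138 to 1014540), was at 19.7 and 16.7 CPM in sh-Scb and at 26.8 and 33.9 CPM in sh-SOX4, a 1.66-fold rise (log2 fold change 0.73, SE 0.13; edgeR adjusted p of 0.0017). HERC5, the main ligase that attaches it (chromosome 4, 88457117 to 88506163), was at 46.6 and 49.3 CPM in sh-Scb and at 28.6 and 32.0 CPM in sh-SOX4. It fell by 0.66 on the log2 scale (SE 0.085; edgeR adjusted p of 0.000142), the only fall in the set that also passed the test against 1.2-fold. USP18, the protease that removes ISG15 and restrains the interferon receptor, was at 19.1 and 19.4 CPM in sh-Scb and at 15.7 and 17.9 CPM in sh-SOX4, and did not pass (edgeR adjusted p of 0.172).

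PARP9, which pairs with the ubiquitin ligase DTX3L, was at 27.4 and 25.1 CPM in sh-Scb and at 37.3 and 37.2 CPM in sh-SOX4, a 1.42-fold rise (log2 fold change 0.50, SE 0.086; edgeR adjusted p of 0.000952). Its neighbour DTX3L, which shares 2.43% of the exonic bases of PARP9, rose by 0.49 on the log2 scale, from 37.3 ± 0.321 to 52.5 ± 0.503 CPM (SD, n = 2).

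Effectors that act on replication and release of virus gave 2 rises among 3 tested genes. BST2, which tethers budding virions to the cell surface (chromosome 19, 17402939 to 17405648), was at 24.2 and 24.3 CPM in sh-Scb and at 34.1 and 34.7 CPM in sh-SOX4, a 1.42-fold rise (log2 fold change 0.50, SE 0.084; edgeR adjusted p of 0.000806). RSAD2, the radical enzyme viperin that makes a chain-terminating nucleotide (chromosome 2, 6865806 to 6898239), was at 6.56 and 7.80 CPM in sh-Scb and at 13.2 and 14.5 CPM in sh-SOX4, a 1.93-fold rise (log2 fold change 0.95, SE 0.14; edgeR adjusted p of 0.000417). The adjacent CMPK2, a nucleotide kinase that supplies the same pathway, rose by 0.72 on the log2 scale, from 18.5 ± 0.819 to 30.6 ± 4.50 CPM (SD, n = 2). MX2, a dynamin-like GTPase, was between 2.69 and 3.44 CPM in the 4 libraries and did not pass. MX1, its best known relative and a common marker of interferon exposure, was counted 9 and 1 times in sh-Scb and 9 and 4 times in sh-SOX4, too few to be tested. The ratio of its pooled CPM was 1.34, with an exact binomial 95% interval of 0.543 to 3.42 for counting error only.

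Among 6 other induced proteins IFI44 rose and no other passed. IFI44 (chromosome 1, 78649796 to 78664078) was at 2.72 and 3.22 CPM in sh-Scb and at 7.06 and 9.41 CPM in sh-SOX4, a 2.77-fold rise (log2 fold change 1.47, SE 0.21; edgeR adjusted p of 0.000269). Its neighbour IFI44L (78619922 to 78646145), another widely used marker of interferon exposure, was counted 2 and 0 times in sh-Scb and 5 and 2 times in sh-SOX4 and was not tested. The ratio of its pooled CPM was 3.61 with an exact binomial 95% interval of 0.688 to 35.6 for counting error only, so no difference could be detected at this depth. IFI6, a small membrane protein that opposes apoptosis, was at 28.4 and 29.1 CPM in sh-Scb and at 26.8 and 28.0 CPM in sh-SOX4 and did not pass (edgeR adjusted p of 0.56), with a 95% interval of the fold of 0.833 to 1.09. IFI27 and IFI35 were at 0.302 to 0.608 CPM in every library, and XAF1, with 38.3% of its exonic bases shared with another gene, was at 0.664 to 1.35 CPM. None of these 3 passed, and their 95% intervals of the fold reached from 0.311 to 1.995, so changes of that size could not be seen.

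Levels of different genes were compared per kilobase of annotated exon, with the exons of all transcripts of a gene merged. This length was 865 bases for IFI6, 5294 for IFI16 and 7799 for IRF1. The order below depends on it, and lengths of single transcripts were not used. In sh-Scb IFI6 stood highest, at 32.9 and 33.6 CPM per kilobase, followed by IFI16 at 28.9 and 29.6 CPM per kilobase, and the libraries of the pair did not overlap. BST2 (21.6 and 21.7), ISG15 (17.7 and 21.0) and IRF1 (17.9 and 18.0) came next in CPM per kilobase, ISG15 overlapping IRF1. In sh-SOX4 the order at the top differed, with IFI16 first at 47.8 and 48.2 CPM per kilobase and IFI6 at 31.0 and 32.4. ISG15 (28.5 and 36.0) overlapped both IFI6 and BST2 (30.5 and 31.0) in CPM per kilobase. At the low end IFI44L and MX1 had mean levels of 0.00258 and 0.0157 CPM per kilobase in sh-Scb. The 2 genes with the highest rises by fold among those at 1 CPM or more in sh-Scb, IFI44 and IFIT2, were at 1.46 and 0.386 CPM per kilobase there.

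**Figure D4:**
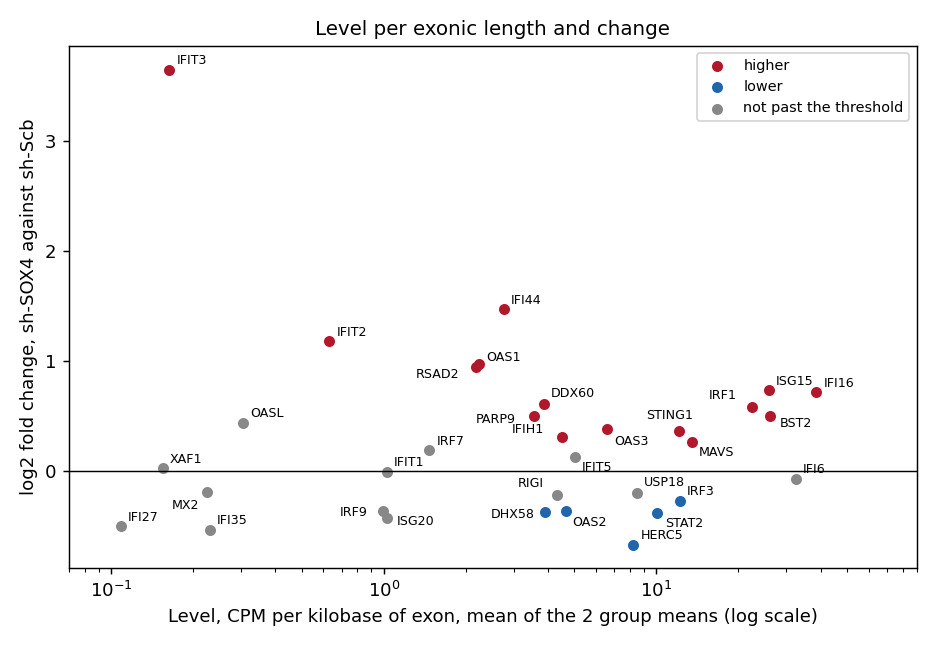
Level of the 33 tested genes in CPM per kilobase of exon (mean of the 2 group means, log axis) against the log2 fold change, sh-SOX4 against sh-Scb; red rose, blue fell and grey did not pass. Called rises occur across the range of levels, with IFIT3, tested only through its sh-SOX4 counts, at the low end. The 5 called falls (IRF3, STAT2, DHX58, OAS2 and HERC5) lie in its middle and upper part. At low level IFI27 (-0.50) and IFI35 (-0.53) also lie below 0 but rest on few counts and did not pass.

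A list of 91 related genes gives the rest of the pathway; 84 had enough counts to be tested, 34 rose and 12 fell, with a median log2 fold change of 0.17. That is 54.8% called, where 44.1% of all IDs were. The 6 interferon genes on the list were close to absent, and other interferon genes were not looked at. IFNA1 and IFNE had 0 counts in all libraries. IFNB1 was counted 7 and 1 times in sh-Scb and 0 and 2 times in sh-SOX4, and IFNL1 10 and 7 against 0 and 9 times. IFNG and IFNK had 5 counts or fewer in any library. None of the 6 was tested.

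Of 11 receptors and kinases, 3 rose and 4 fell, or 63.6% called beside 44.1% of all IDs. Most of the 11 were at 20 CPM or more, where 65.5% of IDs were called. Both chains of the type I interferon receptor rose, IFNAR1 from 93.8 ± 1.25 to 120.0 ± 4.13 CPM (SD, n = 2) and IFNAR2, with 83.2% of its exonic bases shared, from 99.9 ± 3.40 to 127 ± 6.97 CPM (SD, n = 2). The log2 fold changes were 0.36 (edgeR adjusted p of 0.000276) and 0.34 (edgeR adjusted p of 0.000651). IFNGR1, a chain of the interferon gamma receptor, rose by 0.25 on the log2 scale. STAT3, a STAT that opposes part of the interferon response, fell from 183 ± 3.89 to 142 ± 5.80 CPM (SD, n = 2). The receptor-bound kinase TYK2 fell by 0.17 and IL10RB, a chain of the interferon lambda receptor, fell by 0.21 on the log2 scale. IFNGR1, TYK2 and IL10RB each lost the call in 2 or more of the settings other than the test against 1.2-fold.

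In the signalling from sensors, 6 of 16 tested genes rose and 1 fell, or 43.75% called where 44.1% of all IDs were. The fall was that of TRIM25, a ubiquitin ligase that promotes RIGI signalling, from 99.4 ± 3.51 to 63.1 ± 1.66 CPM (SD, n = 2; log2 fold change -0.66, edgeR adjusted p of 8.35e-06). TRAF3, a scaffold between MAVS and its kinases, rose from 88.4 ± 3.75 to 128 ± 3.28 CPM (SD, n = 2; edgeR adjusted p of 2.28e-05). MYD88, the adaptor of most Toll-like receptors, rose from 51.1 ± 0.856 to 73.3 ± 5.40 CPM (SD, n = 2; edgeR adjusted p of 0.000152). The kinases that phosphorylate IRF3, IKBKE and TBK1, rose by 0.68 and 0.36 on the log2 scale, and TICAM1, the adaptor of TLR3, by 0.78. TLR3 itself rose from 2.197 ± 0.227 to 3.65 ± 0.968 CPM (SD, n = 2) with an edgeR adjusted p of 0.0449, which was lost in 6 settings besides the test against 1.2-fold, within 0.0136 to 0.328.

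Of 16 genes that restrain the pathway, 8 rose and 2 fell, or 62.5% called beside 44.1% of all IDs. Most of the 16 were at 20 CPM or more, where 65.5% of IDs were called. ADAR, which edits self RNA so that IFIH1 does not bind it, rose by 0.25 on the log2 scale from 512 ± 2.53 to 611 ± 2.59 CPM (SD, n = 2; edgeR adjusted p of 0.000337). NLRX1, a mitochondrial protein reported to restrain MAVS, rose by 0.56 and RNASEH2C, a subunit of the nuclease that removes RNA from RNA:DNA hybrids, by 0.44 (edgeR adjusted p of 0.000479 and 0.000714). SOCS3, a feedback inhibitor of JAK kinases, fell by 0.66 and PIAS1 fell by 0.14 on the log2 scale. Both lost the call in several settings, SOCS3 in 3 and PIAS1 in 6 besides the test against 1.2-fold.

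Among 41 other interferon-induced genes, 17 rose and 5 fell, or 53.7% called beside 44.1% of all IDs. TRIM14, an adaptor at mitochondria, rose from 71.1 ± 0.661 to 124 ± 2.18 CPM (SD, n = 2; edgeR adjusted p of 1.09e-06). GBP1, a guanylate-binding GTPase that interferon gamma induces strongly, rose 2.71-fold from 6.94 ± 0.0544 to 18.8 ± 0.423 CPM (SD, n = 2; edgeR adjusted p of 6.98e-06). ZC3HAV1, which binds CpG-rich viral RNA, rose from 251 ± 5.19 to 339 ± 1.801 CPM (SD, n = 2; edgeR adjusted p of 1.86e-05). The 5 falls were B2M, the light chain of HLA class I (log2 fold change -0.18), IFITM1, which blocks virus entry (-0.32), the ADP-ribosyltransferase PARP14 (-0.25), EPSTI1 (-0.27) and TRIM22, a ubiquitin ligase (-0.64). Apart from the test against 1.2-fold, EPSTI1 lost the call in 7 settings, TRIM22 in 5, and B2M, IFITM1 and PARP14 in 1 each. Of all 46 called related genes, 29 kept the call in every setting other than the test against 1.2-fold.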

How the data were processed

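The authors deposited whole-number read counts per Ensembl gene ID, not normalized, with 1 column per library. Per the submitters' processing notes, HISAT2 2.2.0, StringTie and hg38 were used; for their roles, the annotation release and strand: not given in the sources used here. Overlapping genes therefore cannot be told apart. Libraries were made from TRIzol RNA with an Illumina TruSeq kit, per the labels' protocols. Control columns are named NC and were taken as sh-Scb. Symbols were found for 56105 of 64252 IDs, and coordinates, exonic lengths and shared bases came from GENCODE 29 on GRCh38.

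Counts were filtered (filterByExpr, minimum count 10, minimum total 15), TMM-scaled and fitted by group with edgeR 4.0.16 (robust quasi-likelihood, R 4.3.3). The SE is the log2 fold change divided by the square root of F. No label states separate cultures. The p-values therefore cover only the spread among these 4 samples, and that spread may be technical. The libraries of a group differed by more than sampling noise (median chi-square per gene 1.71 and 1.60, against 0.455). Alternatives used DESeq2 1.42.0, limma-voom (limma 3.58.1) and the settings named in the closing section; a fit without IDs whose shared exonic bases reached 25% was added after seeing the data. The code was tested on simulated data. The genes, roles and lists were chosen with earlier results of these data known. Every gene of the set is accounted for; of each related list the 3 called genes with the smallest adjusted p are named, and all called genes where a direction had 5 or fewer, except 1 that is counted but not reported here. DTX3L and CMPK2, and the remaining kinases and adaptors of sensor signalling, were named after their values were seen.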

Additional observations from a re-analysis of the deposited data

How the results depend on the processing

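Of the 20 called genes of the set, 13 kept direction and call in every setting that gave them a value, and 16 did so outside the edgeR test against 1.2-fold. Both counts include IFIT3, which was tested only through its sh-SOX4 counts, so its kept call is no measure of stability. Higher calls in the set (15) ranged from 12 to 15. Lower calls (5) became 8 with library totals, 1 in the 1.2-fold test, and 2 to 6 when 1 library was left out, the 2 being without sh-SOX4 replicate 1; the lone library of a group is then assumed to vary like the other group. Related genes called lower (12) became 21 with library totals, 7 with DESeq2, 2 in the 1.2-fold test and 5 to 8 with a library left out; those called higher (34) became 21 in the 1.2-fold test. Over all IDs that test called 2757 higher and 2591 lower, against 4609 and 4166. Scaling to library totals shifted the median over all IDs by -0.099 (log2), to -0.109, with 3629 IDs higher and 5260 lower; the median of the set became 0.090, USP18, RIGI and ISG20 were called lower, and XAF1 reversed to -0.072. With 1 library left out, XAF1 ranged from -0.38 to 0.64, IRF7 from -0.014 to 0.37 and IFIT1 from -0.23 to 0.19, each changing sign; none of these 3 was called in any setting. IFIT3 ranged from 2.55 to 7.73 with 1 library left out. The causes were not tested. A fit with the replicate number as a replicate block gave 15 higher and 5 lower in the set, and 32 and 9 related genes. Differences between replicates 1 and 2 correlated at -0.010 across groups, so no shared replicate effect was seen. This does not show whether libraries of the same number were prepared together. SOX4 ranged from -0.46 to -0.59. Depth limits genes under 1 CPM, such as IFIT3, IFI27 and IFI35, rest on few counts. With 10 CPM in 2 libraries 21 genes of the set were tested, 12 higher and 6 lower, RIGI among the latter.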
